A study of Mus musculus with 6 samples.

Results

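The enzymes of the tricarboxylic acid (TCA) cycle were followed in the kidney cortex of male mice that lack the receptor for the complement fragment C3a. The set held 9 genes: Pdha1, Cs, Idh2, Idh3a, Ogdh, Suclg1, Suclg2, Fh1 and Mdh2. They were taken by the gene name that the array files give to each transcript probe, with every probe of each gene. This gave 19 probes of the 56224 named probes on the array. All 9 genes were among the 20490 genes tested. Pdha1 belongs to the pyruvate dehydrogenase complex, which stands at the entry of the cycle, and the other members act within it.

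The samples were 3 C3aR-/- control cortices and 3 wild-type (WT) control cortices, 1 array each, from C57BL/6 males. Both genotypes were in the control arm of a diabetes study: per the labels, the mice entered this arm when 8 weeks old and ate normal chow (10% fat by calories). After 4 weeks they were given vehicle in place of streptozotocin, and the labels place the collection 20 weeks after induction. The sources used here do not give the design of the C3aR-/- allele. The labels do not say that each sample came from a separate animal, so the p-values reflect only how far these samples scatter, which may be technical.

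The TCA cycle runs in the mitochondrial matrix, where it oxidises acetyl-CoA to carbon dioxide and passes the electrons to NAD and FAD for the respiratory chain. Pyruvate, fatty acids and ketone bodies supply the acetyl-CoA, and amino acids such as glutamine enter further along. The cells of the proximal tubule are rich in mitochondria and draw most of their energy for reabsorption from oxidation, and they also withdraw cycle intermediates for making glucose and ammonium.

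Levels are the log2 of the background-subtracted signal of a probe minus the 75th percentile of its array. A level of 4 is therefore a signal 4 doublings above that percentile. Changes are C3aR-/- minus WT on this log2 scale. A gene was called when its adjusted p from limma over all genes was under 0.05. All 3 C3aR-/- arrays were on 1 slide and in 1 scan, and all 3 WT arrays were on another slide and in another scan, so slide, scan and genotype cannot be told apart in any comparison here. In a bulk tissue sample, fewer cells of a type and less RNA per cell cannot be told apart either.

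On each array 33530 to 35147 of 59305 transcript spots were well above background and none was saturated. The probe of C3ar1, the targeted gene, was well above background on 0 of 3 C3aR-/- arrays and 1 of 3 WT arrays, so it gives no check of the genotype labels. Markers of the proximal tubule were bright on all 6 arrays, as the labelled tissue would have them: Slc34a1, the phosphate transporter of that segment, averaged 7.59 ± 0.01 in C3aR-/- and 7.50 ± 0.05 in WT cortex (SD, n = 3 each).

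Of the 9 members, 1 rose in C3aR-/- cortex (Pdha1), 0 fell and 8 were not called. Over all genes tested 14.3% were called, 7.05% higher and 7.26% lower. The share of members called, 11.1%, was near that background. The log2 changes were small, between -0.16 and 0.29, with a median of 0.10 against 0.02 over all genes and 0.06 over the genes at least as bright as the dimmest member. The median of the members was 0.029 under quantile normalisation and 0.020 in the deposited log2 table, where the median of all genes was 0.02 each time. For comparison, the median size of the change among all called genes was 0.48. The 95% intervals of the 9 members ran from 0.80-fold to 1.35-fold.

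The genotypes did not overlap, all 3 arrays of one lying above all 3 of the other, for 6 of the 9 members (66.7%), against 41.3% of all genes. A change above 0 was measured for 8 of the 9 members, although under quantile normalisation this held for 6 and in the deposited log2 table for 7. The background was 52.6% of all genes and 64.5% of the genes at least as bright as the dimmest member, a comparison added after the data were seen. Of those bright genes 9.73% were called.

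**Figure D1:**
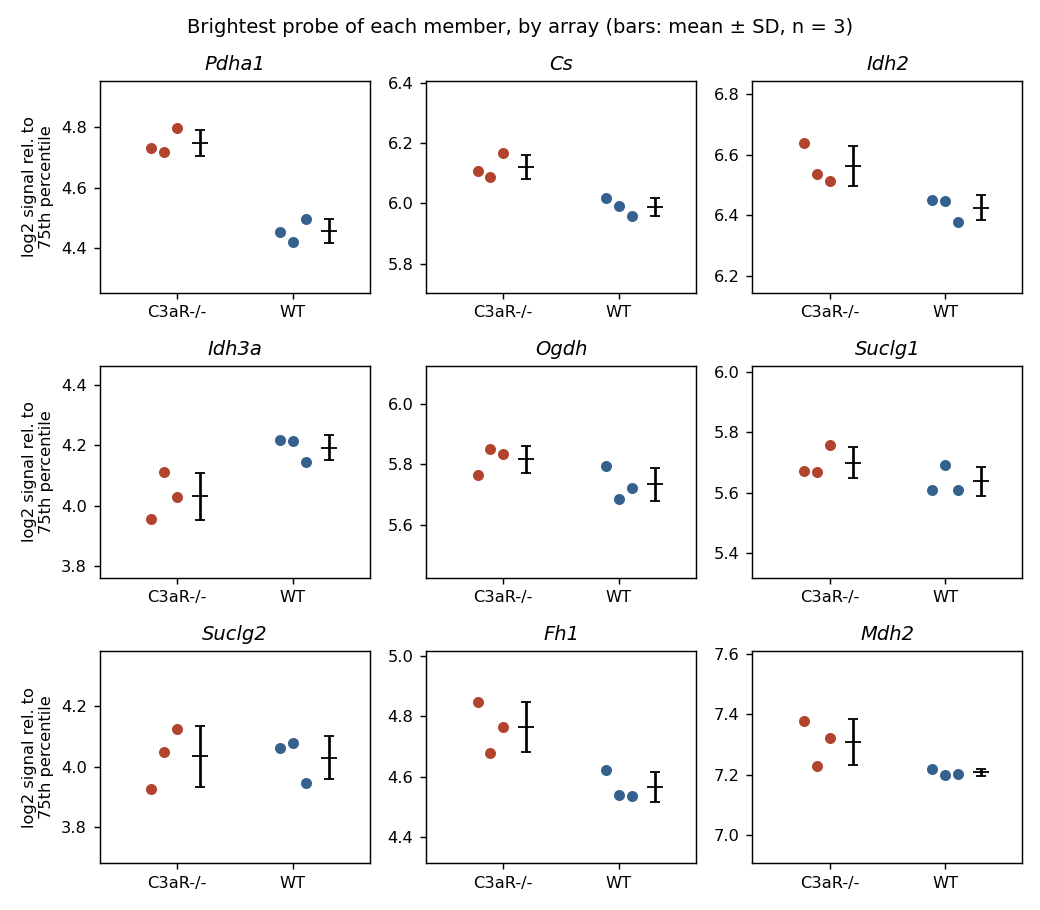
Level of the brightest probe of each member on every array (log2 relative to the array's 75th percentile), with C3aR-/- arrays in red to the left of WT arrays in blue and bars at the group means. Pdha1 lies between 4.72 and 4.80 on the C3aR-/- arrays and between 4.42 and 4.50 on the WT arrays, and Idh3a is the member with its C3aR-/- arrays below its WT arrays.

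The probes that the results turn on are printed here because different probes of 1 gene read different stretches of its RNA. Each is 60 bases long and is written 5′ to 3′ in the sense of the transcript, as the array files hold it. Coordinates are on mouse build mm9. Whole probes are shown for stretches within the transcripts of Idh2, Suclg1 and Suclg2, and the first 30 bases for probes near the 3′ end of a transcript.
Idh2, base 892 of NM_173011, chr7:87242779-87242838, minus strand: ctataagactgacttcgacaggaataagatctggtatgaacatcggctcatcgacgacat
Suclg1, base 904 of NM_019879, chr6:73221044-73221103, plus strand: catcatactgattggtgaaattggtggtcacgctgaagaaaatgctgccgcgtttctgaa
Suclg2, base 854 of NM_011507, chr6:95519645-95519704, minus strand: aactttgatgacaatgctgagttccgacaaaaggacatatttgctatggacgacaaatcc
Suclg2, base 318 of NM_011507, chr6:95545670-95545729, minus strand: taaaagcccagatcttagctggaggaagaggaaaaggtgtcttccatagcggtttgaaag
Suclg2, base 1644 of NM_011507, chr6:95424712-95424771, minus strand, first 30 bases: tgtgcatacatacagtatttaaagccagat
Pdha1, base 2279 of NM_008810, chrX:156560573-156560632, minus strand, first 30 bases: gctgtgacataggaaagataggggagagct
Idh3a, base 1302 of NM_029573, chr9:54451368-54451427, plus strand, first 30 bases: gtgctggttgtatttattgtccgtctggta

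Pdha1 encodes the alpha subunit of the E1 component of pyruvate dehydrogenase, the enzyme that turns pyruvate into acetyl-CoA, and carries the serines whose phosphorylation switches the complex off. Its probe at base 2279 stood at 4.73, 4.72 and 4.80 on the C3aR-/- arrays and at 4.46, 4.42 and 4.50 on the WT arrays. All 3 C3aR-/- arrays were above all 3 WT arrays. The level was 4.75 ± 0.04 in C3aR-/- and 4.46 ± 0.04 in WT cortex (SD, n = 3 each), a log2 change of 0.29 (SE 0.06, 95% interval 0.15 to 0.43), or 1.22-fold (limma, adjusted p = 0.0294).

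The call of Pdha1 sat close to the threshold. It was lost when any 1 array was left out (adjusted p 0.0563 to 0.0991 from limma), in the deposited log2 table (0.0621), with no filter on dim probes (0.0732) and with the probes of a gene averaged (0.287), while its log2 change stayed between 0.19 and 0.34 over all alternatives. A second Pdha1 probe, at base 380 of ENSMUST00000127535, was dim, being well above background on 3 C3aR-/- arrays and 2 WT arrays. It read -4.58, -4.95 and -4.85 in C3aR-/- and -4.88, -5.20 and -4.56 in WT cortex, with overlapping genotypes and a change of 0.09 (SE 0.18, adjusted p = 0.769).

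Cs encodes citrate synthase, which joins acetyl-CoA to oxaloacetate in the first step of the cycle. Its brightest probe (chr10:127799428-127799487, base 2720 of NM_026444) read 6.11, 6.09 and 6.17 in C3aR-/- and 6.02, 5.99 and 5.96 in WT cortex. The genotypes did not overlap, but the change of 0.13 (SE 0.06, 1.10-fold, adjusted p = 0.163) was not called. The second Cs probe, at base 1435, read 3.33, 3.32 and 3.32 in C3aR-/- and 3.31, 3.23 and 3.26 in WT cortex, a change of 0.06 (SE 0.06, adjusted p = 0.523) with the same order of genotypes.

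Isocitrate is oxidised in mitochondria by 2 unlike enzymes, the NADP-dependent homodimer of Idh2 and the NAD-dependent complex whose catalytic subunit is Idh3a. Idh2 at base 1639 (chr7:87239736-87239795) read 6.64, 6.54 and 6.51 in C3aR-/- and 6.45, 6.45 and 6.38 in WT cortex. The C3aR-/- arrays lay above the WT arrays by a mean of 0.14 (SE 0.06, adjusted p = 0.183). On the Idh2 probe at base 892, printed above, the genotypes overlapped, with 3.80, 3.70 and 3.72 in C3aR-/- against 3.66, 3.77 and 3.65 in WT cortex (change 0.05, SE 0.07, adjusted p = 0.644).

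Idh3a was the member whose change lay below 0. Its single probe read 3.96, 4.11 and 4.03 in C3aR-/- and 4.22, 4.22 and 4.14 in WT cortex. All 3 C3aR-/- arrays were below all 3 WT arrays, C3aR-/- replicate 2 coming nearest to them. The change was -0.16 (SE 0.07, 95% interval -0.32 to 0.00, 0.895-fold) and was not called (adjusted p = 0.152). It kept this sign under all 16 alternatives, between -0.20 and -0.11, and was called under none of them.

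Ogdh encodes the E1 component of the 2-oxoglutarate dehydrogenase complex, which makes succinyl-CoA. Its brightest probe (chr11:6256583-6256642, base 4176 of NM_001252287) read 5.77, 5.85 and 5.83 in C3aR-/- and 5.79, 5.69 and 5.72 in WT cortex. The genotypes overlapped through WT replicate 1, and the change was 0.08 (SE 0.06, adjusted p = 0.386). A probe at base 4104 of the same transcript gave 0.01 (SE 0.06, adjusted p = 0.954), and one more Ogdh probe, designed on AK181416, was not well above background on any array.

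Succinyl-CoA ligase pairs the alpha subunit Suclg1 with either the GDP-forming beta subunit Suclg2 or the ADP-forming beta subunit Sucla2. Suclg1 read 5.67, 5.67 and 5.76 in C3aR-/- and 5.61, 5.69 and 5.61 in WT cortex, which overlapped (change 0.06, SE 0.06, adjusted p = 0.509). Suclg2 at base 1644 read 3.93, 4.05 and 4.13 in C3aR-/- and 4.06, 4.08 and 3.95 in WT cortex. Both genotypes covered the same range, and the change was 0.00 (SE 0.08, 95% interval -0.18 to 0.19).

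The other Suclg2 probes did not repeat that reading. At base 854 the levels were 2.60, 2.63 and 2.62 in C3aR-/- and 2.52, 2.46 and 2.44 in WT cortex, a change of 0.14 (SE 0.06, adjusted p = 0.156). At base 318 they were 0.27, 0.13 and 0.18 in C3aR-/- and 0.06, 0.04 and 0.06 in WT cortex, again 0.14 (SE 0.06, adjusted p = 0.199). On both of these probes the genotypes did not overlap and C3aR-/- was the higher.

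Another Suclg2 probe, designed on AK172363 (chr6:95604755-95604814), was near the limit of detection and went the other way. It was well above background on 2 C3aR-/- arrays and 3 WT arrays, with -5.49, -5.40 and -5.11 in C3aR-/- against -4.98, -4.91 and -4.55 in WT cortex (change -0.52, SE 0.15, adjusted p = 0.0782). It passed the filter through its WT arrays alone, the genotype in which it was higher, so its difference is in part set by the filter and is given as a description. One more, on AK042987, was not well above background on any array. The dim second probe of Suclg1, on ENSMUST00000127660, overlapped between genotypes at a change of 0.24 (SE 0.16, adjusted p = 0.338).

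Fh1 encodes fumarate hydratase, which adds water to fumarate to give malate. Its probe (chr1:177531530-177531589, base 1551 of NM_010209) read 4.85, 4.68 and 4.76 in C3aR-/- and 4.62, 4.54 and 4.54 in WT cortex. The genotypes did not overlap, and Fh1 had the next largest change after Pdha1 among the members at 0.20 (SE 0.07, 95% interval 0.03 to 0.36, 1.15-fold). It missed the threshold after adjustment over all genes (adjusted p = 0.107) and under all 16 alternatives (0.0509 to 0.225).

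Mdh2 encodes the mitochondrial malate dehydrogenase, which regenerates oxaloacetate and closes the cycle. Its probe (chr5:136266157-136266216, base 1182 of NM_008617) read 7.38, 7.23 and 7.32 in C3aR-/- and 7.22, 7.20 and 7.20 in WT cortex. All C3aR-/- arrays were above the WT arrays, C3aR-/- replicate 2 by the least. The change of 0.10 (SE 0.06, adjusted p = 0.306) was not called, and its sign turned under quantile normalisation (-0.04) and in the deposited log2 table (-0.08).

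Counted by probe, 17 of the 19 probes passed the filter, and 1 was called (5.88%, the Pdha1 probe at base 2279) against 11.6% of all 30867 probes. Of the 17, the dim Pdha1 probe passed through its C3aR-/- arrays alone and the Suclg2 probe on AK172363 through its WT arrays alone. The members were measured tightly. The median SE of their log2 change was 0.06, against 0.10 over all genes, and all 19 probes were spotted once per array.

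**Figure D2:**
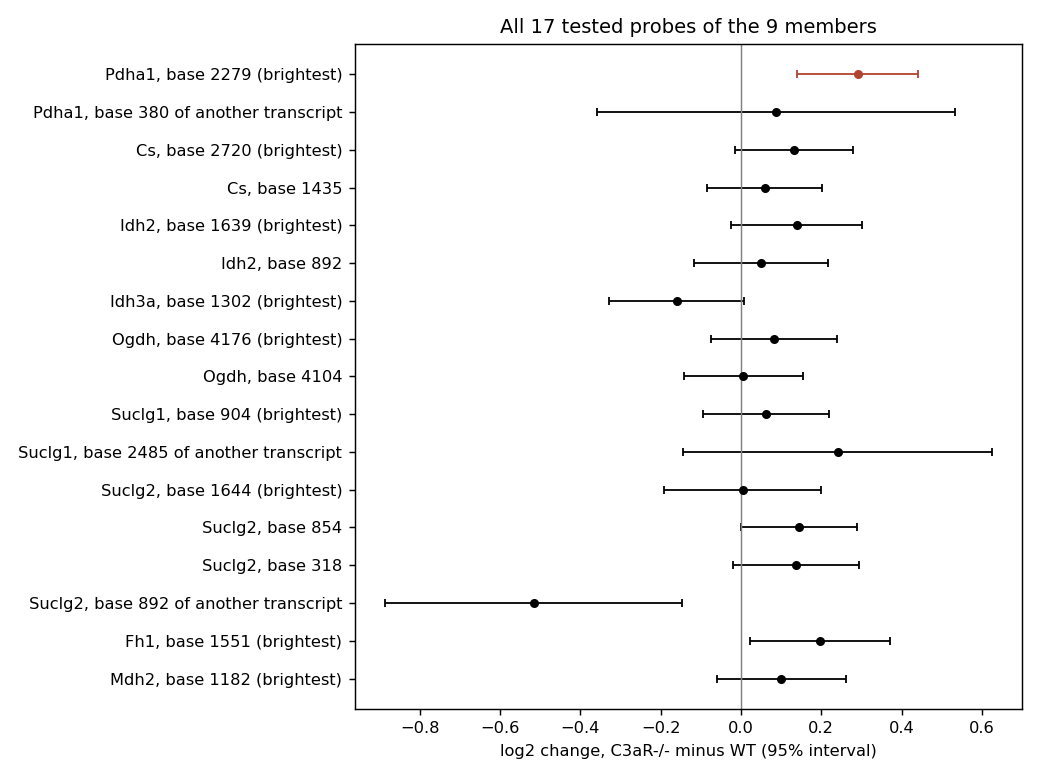
Log2 change (C3aR-/- minus WT) of every member probe that passed the filter, with 95% intervals, each probe named by its base in the transcript and the called probe in red. The Pdha1 probe at base 2279 is called at 0.29, and the dim Suclg2 probe on another transcript lies lowest at -0.52 with a wide interval.

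The other enzymes of the cycle examined were Idh3b, Idh3g, Dlst, Dld, Sucla2 and the 4 subunits of succinate dehydrogenase. Of these 9 genes limma called 0, and 1 (Dlst) had an unadjusted p under 0.05. With an intensity trend or with normexp background correction 1 was called. The median change was 0.08, and 7 of 9 lay above 0.

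Dlst, the E2 component that works with Ogdh, read 5.63, 5.57 and 5.60 in C3aR-/- and 5.45, 5.44 and 5.33 in WT cortex, without overlap. Its change was 0.20 (SE 0.06, adjusted p = 0.0839), while its 3 dimmer probes gave -0.14 to 0.08. Sdhb, the iron-sulphur subunit of succinate dehydrogenase, read 6.70, 6.36 and 6.23 in C3aR-/- and 6.13, 6.22 and 6.10 in WT cortex. C3aR-/- replicate 1 was far above all other arrays, and the change of 0.28 (SE 0.13, adjusted p = 0.185) was not called. The other Sdhb probe read 5.75, 5.72 and 5.70 in C3aR-/- and 5.55, 5.62 and 5.54 in WT cortex, without overlap. Its change of 0.15 (SE 0.06, adjusted p = 0.146) was not called either.

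Sdha, the flavoprotein subunit, had a change of 0.14 (SE 0.06, adjusted p = 0.189). Its next brightest probe averaged 3.59 in C3aR-/- and 3.30 in WT cortex, without overlap, at a change of 0.29 (SE 0.08, limma adjusted p = 0.0654). Its dimmer probes gave 0.17 (SE 0.11) and -0.37 (SE 0.21), each with overlap. The change was 0.08 for Idh3b and 0.09 for Idh3g, the regulatory partners of Idh3a, and -0.08 for Sucla2, none of them called (adjusted p 0.430, 0.470 and 0.411). A second bright Idh3g probe gave 0.25 (SE 0.07, adjusted p = 0.0714) without overlap, and a dim one gave 0.21 (SE 0.18) with overlap.

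Among 12 genes of the pyruvate dehydrogenase complex, its regulators and the mitochondrial pyruvate carrier, 1 rose and 1 fell. That is 16.7% called against 14.3% of all genes, with Dld counted among the other cycle enzymes instead. Both called genes were pyruvate dehydrogenase kinases, which phosphorylate Pdha1 and so inhibit the complex. Pdk2 read 3.60, 3.62 and 3.56 in C3aR-/- and 2.99, 2.92 and 3.06 in WT cortex. The genotypes stood well apart, at a change of 0.60 (SE 0.06, 1.52-fold, adjusted p = 0.00723), and Pdk2 was called under all 16 alternatives.

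Pdk3, another kinase of the family, read 1.74, 1.88 and 1.92 in C3aR-/- and 2.14, 2.19 and 2.15 in WT cortex, without overlap. It fell by 0.31 on the log2 scale (SE 0.07, adjusted p = 0.037), and its dimmer probe gave -0.17. This call was lost under 10 of 16 alternatives, the removal of any 1 array among them, with a limma adjusted p of up to 0.126. Pdhx, the protein that holds E3 in the complex, had a change of -0.22 (SE 0.07, adjusted p = 0.0772), whereas its other probe gave 0.36. Pdk4, the kinase that fasting induces, was uneven among the C3aR-/- arrays at 2.02, 0.04 and 1.71, against 0.35, 0.08 and 0.53 in WT cortex, and its change of 0.94 (SE 0.52, adjusted p = 0.257) was not called.

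Mpc2, a subunit of the mitochondrial pyruvate carrier, had a change of 0.14 (SE 0.07, adjusted p = 0.189). Pdhb, the E1 beta subunit, had a change of 0.10 on its brightest probe and of -0.10 and -0.07 on its other probes. Dlat, the E2 component, had 0.09 on its brightest probe and -0.14 on the other, and Dld, the E3 component shared with the 2-oxoglutarate dehydrogenase complex, had -0.09. None of these 3 genes was called.

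A further list held 23 enzymes that feed or drain the cycle or stand for it in the cytosol, of which 22 were tested. Of these 4 rose and 1 fell, which is 22.7% against 14.3% of all genes. Pck1, the enzyme that takes oxaloacetate into glucose synthesis, read 6.80, 6.82 and 7.15 in C3aR-/- and 6.33, 6.24 and 6.37 in WT cortex. It rose by 0.61 (SE 0.11, 1.53-fold, adjusted p = 0.023), with all C3aR-/- arrays above all WT arrays.

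D2hgdh, which oxidises D-2-hydroxyglutarate to 2-oxoglutarate, read 1.10, 1.15 and 1.20 in C3aR-/- and 0.78, 0.86 and 0.83 in WT cortex (change 0.33, SE 0.06, adjusted p = 0.0245). Mdh1, the cytosolic counterpart of Mdh2, read 6.39, 6.41 and 6.44 in C3aR-/- and 6.20, 6.08 and 6.14 in WT cortex. It rose by 0.27 (SE 0.06, adjusted p = 0.0372) on this probe. Another bright Mdh1 probe, at base 1313 of the same transcript, averaged 5.84 in C3aR-/- and 5.90 in WT cortex. Its genotypes overlapped at a change of -0.06 (SE 0.08, limma adjusted p = 0.605), so the rise was not read by both bright probes. A much dimmer probe gave 0.04.

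Nnt, the transhydrogenase that links NADH and NADPH in mitochondria, read 4.08, 4.06 and 4.14 in C3aR-/- and 3.86, 3.79 and 3.82 in WT cortex. Its rise of 0.27 (SE 0.06, adjusted p = 0.0352) was read by its brightest probe, and its other probes gave -0.10 and 0.18. Acly, which splits citrate in the cytosol, fell by 0.25 on the log2 scale (SE 0.06, adjusted p = 0.0476), with 4.50, 4.37 and 4.43 in C3aR-/- against 4.70, 4.70 and 4.65 in WT cortex. Of these 22 genes 3 were called without C3aR-/- replicate 1, 1 without C3aR-/- replicate 3, and 0 without C3aR-/- replicate 2 or any 1 of the WT replicates. Over all alternatives the adjusted p from limma reached 0.0734 for Pck1, 0.0841 for D2hgdh, 0.138 for Acly, 0.396 for Nnt and 0.447 for Mdh1.

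Idh1, the cytosolic counterpart of Idh2, had a change of 0.02 (SE 0.11, adjusted p = 0.903) on its brightest probe. A dimmer Idh1 probe, named after its values were seen, gave -0.83 (SE 0.18, adjusted p = 0.041 in the fit over all probes), so the probes of this gene disagree. Pcca probes disagreed too, at 0.23 on the brightest (not called) and -0.53 on a dimmer one (limma adjusted p = 0.0248 over all probes). A dim Me3 probe gave 0.45 (limma adjusted p = 0.0188 over all probes). It passed the filter through its C3aR-/- arrays alone, the genotype in which it was higher, so its difference is in part set by the filter.

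**Figure D3:**
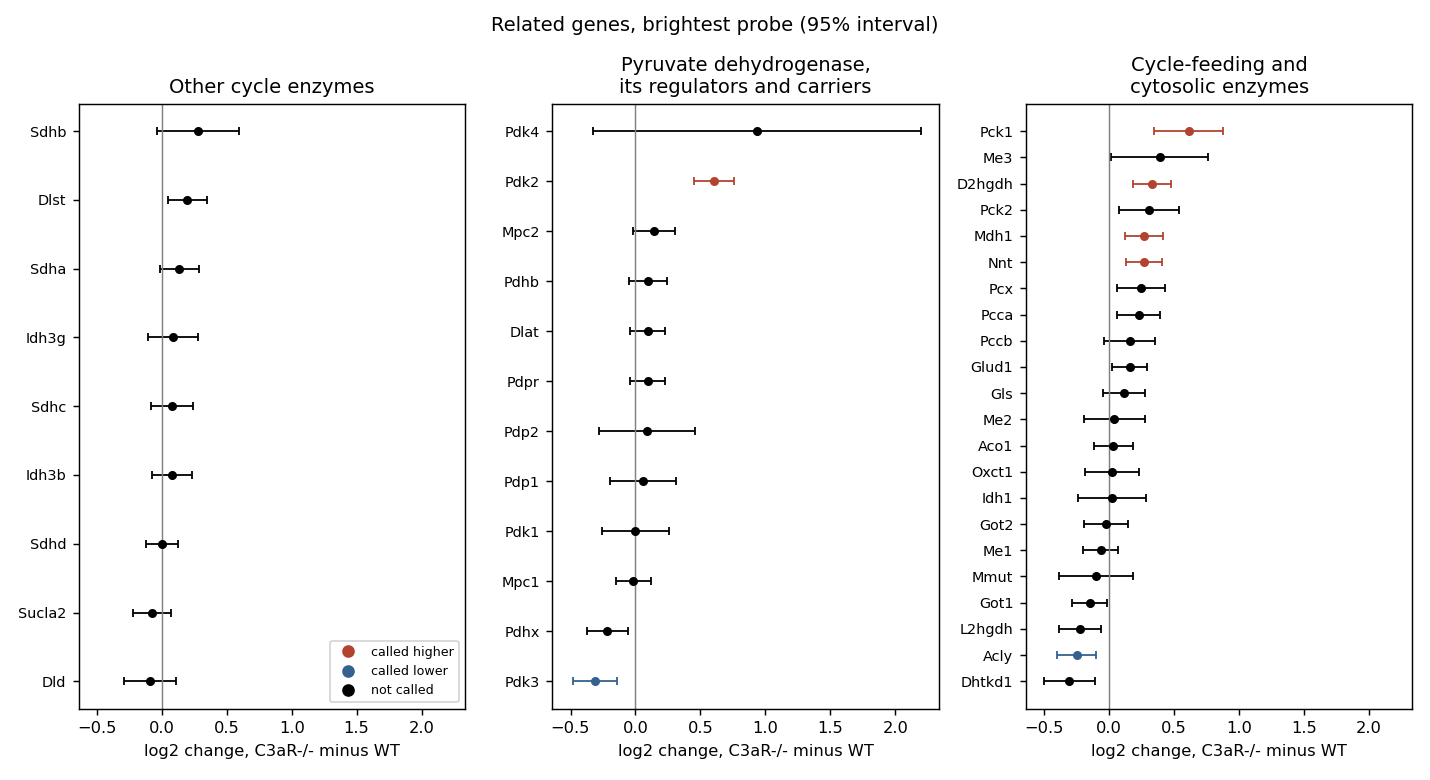
Log2 change (C3aR-/- minus WT) with 95% intervals for the genes of the 3 related lists, by list, with called genes in red (higher) or blue (lower). Pdk2 at 0.60 and Pck1 at 0.61 are the called genes farthest above 0, Pdk3 at -0.31 the called gene farthest below it, and Pdk4 has the widest interval.

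Within an array, the level of a member minus that of its partner enzyme does not depend on how the array is scaled by a single factor. These 7 differences were chosen after the data were seen, and only their shift between genotypes is of use, since levels of different probes are not comparable. With 3 arrays against 3, the exact permutation test (two-sided) cannot give a p under 0.1, or under 0.14 after adjustment over the 7, so no difference could pass the threshold.

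Idh3a minus Idh3b was -0.57, -0.57 and -0.54 in C3aR-/- and -0.29, -0.29 and -0.38 in WT cortex, a shift of -0.24 (exact permutation p = 0.1). Idh3a minus Idh3g shifted by -0.25 and Idh3a minus Idh2 by -0.30, so Idh3a was lower relative to each of these 3 enzymes on every C3aR-/- array than on any WT array. These 3 differences share the single Idh3a probe, whose own levels did not overlap, so they are not separate observations. Pdha1 minus Pdhb was -0.28, -0.22 and -0.10 in C3aR-/- and -0.41, -0.44 and -0.33 in WT cortex, a shift of 0.19 (exact permutation p = 0.1) that came to 0.080 with normexp background correction.

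Mdh2 minus Mdh1 was 0.99, 0.82 and 0.88 in C3aR-/- and 1.02, 1.12 and 1.06 in WT cortex, a shift of -0.17 (exact permutation p = 0.1) that came to -0.35 with normexp background correction. This shift rests on the brightest Mdh1 probe, which rose by 0.27. The other bright Mdh1 probe, at base 1313, changed by -0.06 while Mdh2 changed by 0.10, so the direction of the shift depends on the Mdh1 probe. The subunits of succinyl-CoA ligase gave overlapping genotypes, with a shift of 0.06 for Suclg1 minus Suclg2 (-0.0097 under quantile normalisation and -0.020 in the deposited log2 table) and 0.08 for Suclg2 minus Sucla2 (exact permutation p = 0.4 for each, two-sided).

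**Figure D4:**
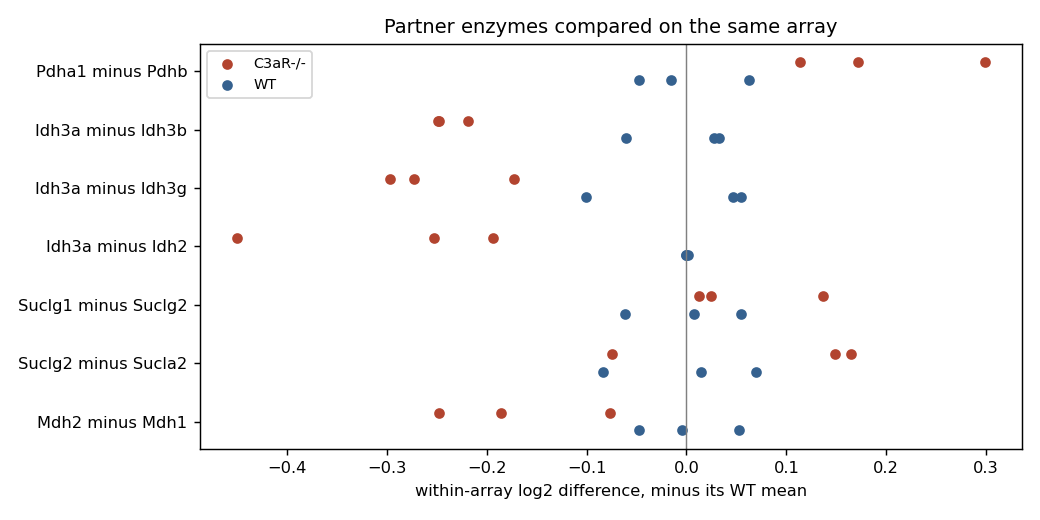
Within-array difference in log2 level between a member and its partner enzyme, drawn minus its WT mean, with C3aR-/- arrays in red and WT arrays in blue. The 3 differences that start from Idh3a are lower on all 3 C3aR-/- arrays, and both succinyl-CoA ligase differences overlap.

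The mean level of the 9 members was 5.45, 5.44 and 5.48 on the C3aR-/- arrays and 5.38, 5.36 and 5.33 on the WT arrays. Among all genes tested, the 5 whose levels followed that mean most closely over the 6 arrays were Zscan2, a zinc finger protein (Pearson r = 0.997), Cldn2, a claudin of the proximal tubule (0.996), a long intergenic transcript on chromosome 11 (0.996), ENSMUST00000181990 (0.995) and Rab3gap2 (0.994). Zscan2 was dim, at a mean of -4.18 in C3aR-/- and -5.05 in WT cortex, and well above background on 3 C3aR-/- arrays and 2 WT arrays. It passed the filter through its C3aR-/- arrays alone, the genotype in which it was higher, so its difference is in part set by the filter. All 5 correlations are descriptions over 6 arrays that fall into 2 genotypes.

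Marker levels of several cell types differed between the genotypes as well. The counts of called markers stand beside 14.3% of all genes called. All 10 proximal tubule markers had a change above 0, with a median of 0.20, and 2 of 10 (Slc5a2 and Slc5a12) rose. Their summed level ran from 10.0 to 10.1 in C3aR-/- and from 9.78 to 9.89 in WT cortex, without overlap. Of the 6 collecting duct markers 3 rose and 1 fell, with a median change of 0.29 and summed levels of 5.92 to 6.08 in C3aR-/- and 5.68 to 5.72 in WT cortex. Of the 5 podocyte markers 1 rose, with a median of 0.28 and summed levels of 4.39 to 4.60 in C3aR-/- and 4.06 to 4.33 in WT cortex. The 6 endothelial markers had summed levels of 5.07 to 5.14 in C3aR-/- and 5.16 to 5.30 in WT cortex. This lower sum was not shared by most of them, as 4 of 6 had a change above 0, with a median of 0.08. Of the 6, 1 rose (Pecam1, 0.51) and 1 fell (Kdr, -0.53). The 7 macrophage and dendritic markers had summed levels of 3.71 to 3.87 in C3aR-/- and 3.91 to 4.26 in WT cortex, with 1 higher and 1 lower. Summed levels overlapped between genotypes for the thick limb and distal tubule, T cell, and fibroblast and matrix markers. Of the 4 adipocyte markers 1 was tested (Lep, -0.20), and it was not called. Markers of mitochondrial content had a median change of 0.08, with 7 of 10 above 0, 0 called higher and 1 called lower (Nrf1, -0.37). Their summed level ran from 8.27 to 8.33 in C3aR-/- and from 8.12 to 8.24 in WT cortex. The part of these shifts in the changes of the members was not tested. Of the 7 B and plasma cell markers 6 were tested, 3 of which fell. Among those 3, Pou2af1 was well above background on 2 C3aR-/- arrays and 3 WT arrays. It passed the filter through its WT arrays alone, the genotype in which it was higher, so its fall is in part set by the filter. The summed level of the 6 was -0.26 to -0.06 in C3aR-/- and 1.67 to 2.14 in WT cortex. The part of this difference in the changes of the members was not tested either.

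**Figure D5:**
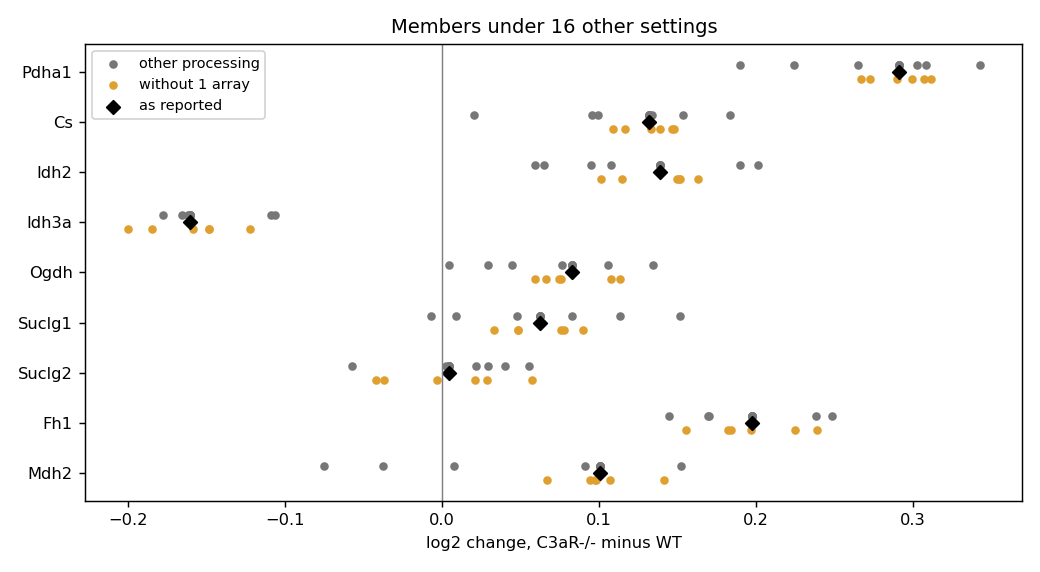
Log2 change (C3aR-/- minus WT) of the 9 members as reported (black diamonds), under other processing (grey) and with 1 array left out (orange). Pdha1 stays between 0.19 and 0.34 and Idh3a between -0.20 and -0.11, while Mdh2, Suclg1 and Suclg2 cross 0.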

How the data were processed

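Per the file headers, Agilent Feature Extraction 10.7.1.1 read each one-colour array and gave every spot a background-subtracted intensity (the processed signal) with flags. The cRNA carried Cy3 and came from 0.2 µg RNA, per the labels' protocols. A deposited log2 table of these arrays served as an alternative. Its 6 columns share 1 set of sorted values to within 0.000903, with a median of 5.39. The log2 scale was inferred from their correlation with the processed signal (0.995 to 0.996). The sources used here do not give its centring.

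The log2 processed signal was centred on the 75th percentile of the transcript spots of its array (662 to 827 before the log). Control spots and outlier spots were left out, as were 381 probes without a name and 106 without an unflagged spot on every array. Probes were kept (30867) if all 3 arrays of 1 genotype or of both had them well above background, and the brightest probe by its mean over the 6 arrays stood for each of 20490 genes. Symbols came from a RefSeq table (GRCm38.p6, names only), which matched 32994 of 56605 probes. The genotype difference was fitted in R 4.3.3 by lmFit and eBayes of limma 3.58.1. P-values are two-sided and were adjusted by the Benjamini-Hochberg method over all genes, or over all probes where a second probe is given, and the threshold was 0.05. The fit was tested on simulated data. The number of arrays limits the precision.

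The members, lists and tests were chosen with earlier results of these data known. The text names all members and their probes, called genes of the 3 related lists (up to 4 by smallest p where fewer passed), 5 partner enzymes, the 5 genes most like the member mean, and C3ar1. Pdk4, Pdhb, Dlat, Dld, Idh1, Pcca and Me3 were named outside this rule, after their values were seen. One gene of the related lists is not reported here. Alternatives changed the scaling, background correction, filter, choice of probe, fit and arrays used.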

Additional observations from a re-analysis of the deposited data

How the results depend on the processing

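Of the 9 members, 0 were called in the deposited table, with no filter on dim probes, with the probes of a gene averaged, with the replicate number as a block, and with any 1 array left out (0 to 0). By probe, 2 were called with normexp and 0 with quantile normalisation, the deposited table, no filter, the replicate block or 1 array left out (0 to 0). Over all genes 2.54% were called with no filter, 3.17% with the replicate block and 3.55% to 8.23% with 1 array left out, so fewer calls of any kind were made there. The other cycle enzymes gave 1 call with normexp and 1 with an intensity trend. The pyruvate dehydrogenase list gave 5 calls with normexp, 1 with median scaling, no filter, averaged probes or the replicate block, and 1 to 2 with 1 array left out. The feeding list gave 0 calls with no filter, 0 with the replicate block, 3 with averaged probes, 8 with array weights, 10 with an intensity trend and 0 to 3 with 1 array left out. The median change of the members was 0.029 under quantile normalisation, 0.15 under median scaling (which moved the median of all genes to 0.07), 0.020 in the deposited table and 0.094 to 0.14 with 1 array left out. The partner differences moved with normexp to 0.08 for Pdha1 minus Pdhb, -0.35 for Mdh2 minus Mdh1, -0.18 for Idh3a minus Idh3b and -0.16 for Idh3a minus Idh3g, and that of Suclg1 minus Suclg2 turned to -0.0097 (quantile) and -0.020 (deposited table). Signs turned for these changes: Suclg1 -0.0071 (quantile), Mdh2 -0.038 (quantile) and -0.075 (deposited table), and Suclg2 -0.057 with averaged probes and -0.042 to 0.058 with 1 array left out, below 0 without C3aR-/- replicate 2 or 3 or WT replicate 3. The Ogdh probe at base 4104 turned to -0.055 (quantile), -0.090 (normexp), -0.045 (deposited table) and -0.0051 (array weights), and gave -0.018 to 0.031 with 1 array left out, below 0 without C3aR-/- replicate 2 or WT replicate 2. The dim Pdha1 probe turned to -0.058 (normexp) and gave -0.072 to 0.25 with 1 array left out, below 0 without C3aR-/- replicate 1 or WT replicate 2. The cause was not tested. Deviations of same-numbered arrays correlated at 0.042, 0.0081 and -0.060, so no shared effect of the replicate number was seen. Such values cannot tell whether the samples were paired. The slide could not be fitted as a block because each slide held 1 genotype.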
